A study of Mus musculus with 24 samples.

Results

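Thalamic genes in hippocampal punches were followed gene by gene in the bulk RNA sequencing of 24 female C57BL/6 mice. The 8 genes are Prkcd, Rgs16, Synpo2, Tnnt1, Amotl1, Ntng1, Lef1 and Rora. They were taken by symbol, as genes known to be enriched in the thalamus, from the 46983 genes of the deposited table of read counts, and each symbol matched 1 row. The choice was made with earlier results of these data known. The genes that the study had picked as hub genes of a co-expression module are not among them. The mice fell into 4 groups of 6. Fkbp5lox/lox mice carry a floxed Fkbp5 gene without Cre and served as wild-type littermates, and Fkbp5Nex mice carry the same floxed gene with Cre under the Nex (Neurod6) promoter. In Fkbp5Nex mice the stress-response co-chaperone FKBP51 is therefore lost from glutamatergic neurons of the forebrain before birth, in hippocampus, neocortex, olfactory bulb and amygdala, with the dentate gyrus spared. Each genotype was reared either under a control condition or under early life stress (ELS), a cage with limited bedding and nesting material from postnatal day 2 to 9. The mice went through behavioural tests at 6 months of age before the brains were frozen, and RNA came from 1 mm punches of dorsal and ventral hippocampus of each mouse.

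Libraries held 18347283 to 26555623 assigned reads. The targeted gene matched the labels: Fkbp5 had 1078 to 1602 reads in the 12 Fkbp5lox/lox mice and 169 to 582 in the 12 Fkbp5Nex mice, with no overlap. All 8 thalamic genes passed the filter on low counts (at least 10 reads in every mouse of at least 1 group), as did 16209 genes in all. The lowest count of any of them was 15 reads, for Tnnt1.

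The dorsal thalamus lies directly beneath the dorsal hippocampus, and its relay neurons are glutamatergic cells that send sensory and motor signals to the cortex. They are born from progenitors outside the cortical lineage and express a set of genes that pyramidal cells of the hippocampus use little, among them transcription factors of the TCF/LEF family and the nuclear receptor Rora. RNA of such genes in a hippocampal punch can come from thalamic tissue at the edge of the punch, from thalamic axons or from hippocampal cells that express the gene at a low level. In bulk tissue more cells of a type and more RNA per cell cannot be told apart.

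The genes act in different ways and lie on 5 chromosomes. Prkcd (ENSMUSG00000021948, protein kinase C delta, a lipid-activated kinase) lies on chromosome 14 from 30595354 to 30626210 in GRCm38. Rgs16 (ENSMUSG00000026475, chromosome 1, 153740349 to 153745468) speeds the switching-off of G proteins. Synpo2 (ENSMUSG00000050315, chromosome 3, 123076519 to 123236149) encodes an actin-binding protein. Tnnt1 (ENSMUSG00000064179, chromosome 7, 4504570 to 4516382) encodes troponin T of slow skeletal muscle. Amotl1 (ENSMUSG00000013076, chromosome 9, 14541966 to 14645056) encodes a cell-junction protein of the angiomotin family. Ntng1 (ENSMUSG00000059857, chromosome 3, 109780040 to 110144011) encodes netrin G1, a membrane-anchored adhesion protein of axons. Lef1 (ENSMUSG00000027985, chromosome 3, 131110471 to 131224356) encodes a transcription factor of the Wnt pathway. Rora (ENSMUSG00000032238, chromosome 9, 68653786 to 69388246) encodes a nuclear receptor. Positions are those of GENCODE M21, since the authors' build is not given in the sources used here. Exons of Rgs16, Lef1 and Rora overlap exons of a gene on the opposite strand, and whether reads were counted by strand is not given either, so these 3 levels may include reads of the partner gene.

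The upstream sequences of 4 of the genes are shown, 250 bases before a RefSeq start site (GRCm38.p6), 5′ to 3′ on the gene's strand. Whether the genes share regulation was not tested. Prkcd is chr14:30626209-30626458 on the minus strand, Synpo2 chr3:123236150-123236399 on the minus strand, Rgs16 chr1:153740103-153740352 on the plus strand and Rora chr9:68653536-68653785 on the plus strand. Capitals mark each E-box, the letters CANNTG, which reads alike on both strands.
Prkcd: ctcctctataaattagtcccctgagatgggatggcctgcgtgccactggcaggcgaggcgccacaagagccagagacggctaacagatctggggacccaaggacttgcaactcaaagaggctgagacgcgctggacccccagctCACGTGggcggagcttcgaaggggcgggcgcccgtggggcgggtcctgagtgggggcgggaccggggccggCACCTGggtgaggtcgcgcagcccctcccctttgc
Synpo2: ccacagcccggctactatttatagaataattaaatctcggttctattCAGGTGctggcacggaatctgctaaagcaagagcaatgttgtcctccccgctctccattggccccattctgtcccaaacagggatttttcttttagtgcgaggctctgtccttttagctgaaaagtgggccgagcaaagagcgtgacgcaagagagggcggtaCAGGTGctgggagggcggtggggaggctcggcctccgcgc
Rgs16: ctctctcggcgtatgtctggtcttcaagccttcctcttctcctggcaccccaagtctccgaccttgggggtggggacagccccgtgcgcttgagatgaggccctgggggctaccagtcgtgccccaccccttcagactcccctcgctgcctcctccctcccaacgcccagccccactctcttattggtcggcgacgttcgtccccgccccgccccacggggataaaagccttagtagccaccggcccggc
Rora: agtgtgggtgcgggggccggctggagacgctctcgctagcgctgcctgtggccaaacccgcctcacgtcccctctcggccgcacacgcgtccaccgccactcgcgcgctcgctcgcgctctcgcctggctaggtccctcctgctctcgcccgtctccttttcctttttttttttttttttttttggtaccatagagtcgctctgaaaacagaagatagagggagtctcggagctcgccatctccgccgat
Prkcd and Synpo2 each hold 2 E-boxes, while Rgs16 and Rora hold none in these windows. Searched in the whole RefSeq windows of 300 bases, which reach 50 bases past the start and number 12 for the 8 genes, an E-box was present in 4 of 8 genes (Prkcd, Synpo2, Tnnt1 and Lef1) beside 75.0% of all 27025 genes with a window. The narrower form CAGGTG, or CACCTG on the other strand, lies within the E-box and was present in the same 4 genes beside 22.6% of all genes. The TCF/LEF motif CTTTGAA, or TTCAAAG on the other strand, was in 0 of 8 genes beside 5.93% of all, and the variant CTTTGTT, or AACAAAG on the other strand, in 1, Prkcd, beside 6.68%. That match lay before another RefSeq start site of Prkcd, in chr14:30610311-30610560, which is not shown above and held 3 E-boxes. A CCAAT letter run (ATTGG on the other strand) was in 3 of 8, Synpo2, Rgs16 and Rora, beside 41.1%. None of these motifs was found in all 8 genes, and a match in letters is not a binding site.

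Per exon length, the genes covered about an order of magnitude. The median over the 24 mice, as reads per kilobase of exon, scaled to 1000000 over the tested genes in each mouse, was 18.4 for Ntng1, 14.0 for Prkcd, 12.4 for Rora, 9.51 for Rgs16, 9.45 for Amotl1, 4.46 for Tnnt1, 2.51 for Synpo2 and 1.33 for Lef1. The ranges over mice of every gene and its neighbour in that order overlapped, and Prkcd alone ran from 7.86 to 72.9 on the same scale. All further values are CPM (counts scaled to 1000000 per TMM-adjusted library), which may be compared between mice but not between genes.

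The genes differed most in how far they varied. Between the lowest and the highest of the 24 mice the level spanned 26.6-fold for Tnnt1, 8.97-fold for Prkcd and 8.80-fold for Rgs16. It spanned 4.14-fold for Synpo2, 3.16-fold for Lef1, 3.10-fold for Rora, 2.72-fold for Amotl1 and 1.98-fold for Ntng1. At the lowest mouse, counting error alone gives a standard error of 0.37 on the log2 scale for Tnnt1, 0.23 for Lef1 and at most 0.17 for the other 6 genes. The within-group SD of log2 CPM was 1.32 for Tnnt1, 0.97 for Prkcd and 0.78 for Rgs16, against a median of 0.18 over the 16209 tested genes. Only 0.191% of tested genes varied more than Tnnt1 and 0.580% more than Prkcd. For Ntng1, with an SD of 0.31, the share was 26.4%.

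The same few mice carried the high values of gene after gene. Fkbp5lox/lox ELS mice 8 and 78 ranked among the top 3 of 24 for all 8 genes, mouse 8 in first place for 6 and mouse 78 for Prkcd and Lef1. Fkbp5Nex ELS mouse 66 ranked between 2 and 4 for every gene and stood in the top 3 for 5 of them. Fkbp5Nex control mouse 54 was in the top 3 for 2 genes and above the median for all 8. At the other end, Fkbp5lox/lox control mouse 30 was among the lowest 6 mice for 7 genes. High mice were thus present in both genotypes and under both rearing conditions, but no Fkbp5lox/lox control mouse was above the median for all 8 genes.

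**Figure D1:**
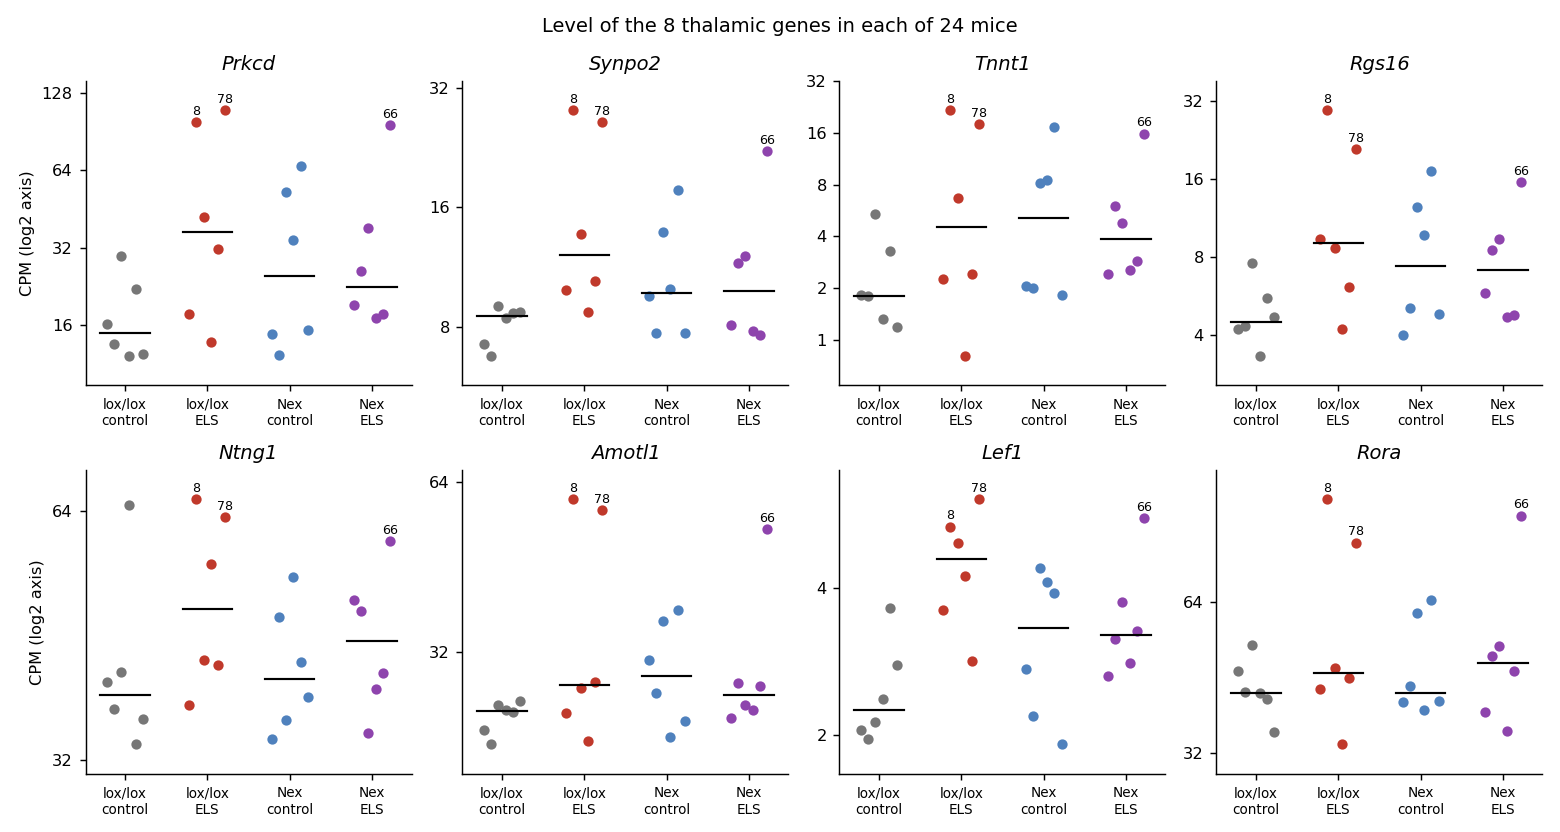
Level of each of the 8 genes in CPM (log2 axis) in 24 mice, 6 per group, with 1 point per mouse and a black bar at the group median. Fkbp5lox/lox ELS mice 8 and 78 and Fkbp5Nex ELS mouse 66, numbered, lie at the top in nearly every panel, and the 4 groups overlap for every gene.

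Among the signalling genes, Prkcd was at 12.2, 14.9 and 29.8 CPM (lowest, median and highest mouse) in Fkbp5lox/lox control mice and at 13.7, 36.9 and 109 CPM in Fkbp5lox/lox ELS mice. In Fkbp5Nex mice it was at 12.2, 24.8 and 66.6 CPM under control rearing and at 17.1, 22.6 and 95.9 CPM after ELS. The 4 groups therefore shared a floor near the same level, and the upper end set them apart: 4 of 6 Fkbp5lox/lox ELS mice were above the highest Fkbp5lox/lox control mouse, and the 2 others were within the control range. Rgs16 was at 3.33, 4.51 and 7.58 CPM in Fkbp5lox/lox control mice and at 4.22, 9.04 and 29.4 CPM after ELS. The Fkbp5Nex values were 4.00, 7.40 and 17.2 CPM under control rearing and 4.69, 7.15 and 15.6 CPM after ELS. Again 4 of 6 Fkbp5lox/lox ELS mice lay above the control range.

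Among the cytoskeletal and junctional genes, Synpo2 was tight in Fkbp5lox/lox control mice, at 6.77, 8.54 and 9.03 CPM, and spread in Fkbp5lox/lox ELS mice, at 8.70, 12.1 and 28.1 CPM. It was at 7.71, 9.76 and 17.7 CPM in Fkbp5Nex control mice and at 7.64, 9.82 and 22.2 CPM in Fkbp5Nex ELS mice. Of the 6 Fkbp5lox/lox ELS mice 5 were above every Fkbp5lox/lox control mouse. Tnnt1 was at 1.19, 1.81 and 5.41 CPM in Fkbp5lox/lox control mice and at 0.811, 4.56 and 21.6 CPM in Fkbp5lox/lox ELS mice, a group that held both the lowest and the highest of all 24 values. In Fkbp5Nex mice Tnnt1 was at 1.82, 5.12 and 17.2 CPM under control rearing and at 2.43, 3.84 and 15.8 CPM after ELS. Amotl1 was at 21.99, 25.2 and 26.3 CPM in Fkbp5lox/lox control mice and at 22.3, 28.0 and 59.7 CPM after ELS, and only mice 8 and 78 went past 30 CPM in the latter group. In Fkbp5Nex mice Amotl1 was at 22.6, 29.1 and 38.1 CPM under control rearing, and at 24.5, 26.9 and 52.8 CPM after ELS with mouse 66 alone at the top.

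Ntng1, the surface protein, kept to a narrower band. It was at 33.4, 38.3 and 65.2 CPM in Fkbp5lox/lox control mice, where mouse 44 stood alone at the top and the next mouse was at 40.8 CPM. In Fkbp5lox/lox ELS mice it was at 37.3, 48.8 and 66.2 CPM, in Fkbp5Nex control mice at 33.9, 40.1 and 53.3 CPM, and in Fkbp5Nex ELS mice at 34.5, 44.6 and 59.0 CPM. Mouse 44 was the lowest of all mice for Prkcd and Rgs16, so its Ntng1 level did not follow theirs.

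Of the transcription factors, Lef1 was low throughout, at 1.96, 2.25 and 3.63 CPM in Fkbp5lox/lox control mice and at 2.84, 4.58 and 6.06 CPM after ELS, where 4 of 6 mice exceeded the highest control mouse. In Fkbp5Nex mice Lef1 was at 1.92, 3.31 and 4.38 CPM under control rearing and at 2.64, 3.20 and 5.55 CPM after ELS. Rora was at 35.2, 42.2 and 52.4 CPM in Fkbp5lox/lox control mice and at 33.2, 46.2 and 103 CPM after ELS, with 2 of 6 mice, 8 and 78, above the control range. It was at 38.9, 42.0 and 64.7 CPM in Fkbp5Nex control mice and at 35.3, 48.3 and 95.4 CPM in Fkbp5Nex ELS mice. For every gene and every pair of groups compared the values overlapped.

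The comparisons ask whether ELS shifted these genes in each genotype, whether the genotypes differed under each rearing condition, and whether the ELS effect differed between genotypes. The study ran DESeq2 with surrogate variables, which are axes of variation between mice estimated from all genes beyond the labelled groups. Here the main fit held 5 such variables, and edgeR's quasi-likelihood test was read at an adjusted p (false discovery rate, FDR) under 0.02. None of the 8 genes passed in any of the 5 comparisons, by edgeR or by DESeq2. Over all genes the share past that FDR was 0% for ELS in Fkbp5lox/lox mice, 0% for ELS in Fkbp5Nex mice, 0.0370% for genotype under control rearing, 0.0123% for genotype after ELS and 0% for the difference of ELS effects. At an unadjusted p under 0.05, 1 of the 8 genes was higher with ELS in Fkbp5lox/lox mice (2.74% of all genes) and 2 were higher in Fkbp5Nex than in Fkbp5lox/lox control mice (3.71% of all genes). After ELS 1 was higher in Fkbp5Nex mice (2.86% of all genes). For ELS in Fkbp5Nex mice 0 passed in either direction, beside 424 of all 16209 genes. The difference of ELS effects also had 0, beside 618 of 16209.

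For ELS in Fkbp5lox/lox mice, the gene at that level was Lef1, with a log2 fold change of 0.50 ± 0.19 (SE) and an adjusted p of 0.974 by edgeR. Prkcd had 0.34 ± 0.38, Rgs16 0.39 ± 0.25 and Synpo2 0.30 ± 0.22, so each lay less than 2 SE from 0. The fitted values were 0.16 for Tnnt1, 0.11 for Amotl1, 0.011 for Ntng1 and -0.061 for Rora. The median over the 8 genes was 0.23, beside 0.0025 over all genes. For ELS in Fkbp5Nex mice the fitted values ran from -0.11 for Rgs16 to 0.27 for Lef1, 3 of 8 were positive and the median was -0.020. The difference of the ELS effects, Fkbp5lox/lox minus Fkbp5Nex, had a median of 0.18 and was largest for Rgs16, at 0.50 ± 0.34 (edgeR adjusted p = 0.9995).

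Under control rearing, Rgs16 was 0.65 ± 0.24 higher on the log2 scale in Fkbp5Nex than in Fkbp5lox/lox mice (edgeR adjusted p = 0.471) and Tnnt1 1.07 ± 0.45 higher (edgeR adjusted p = 0.534). Neither passed the FDR, and both values moved with single mice. Tnnt1 was at 0.47 without Fkbp5lox/lox ELS mouse 8 and at 0.59 without Fkbp5Nex control mouse 12, and Rgs16 was at 1.001 without Fkbp5lox/lox control mouse 74. With groups alone, 0 of the 8 genes were higher in Fkbp5Nex control mice at an unadjusted p under 0.05, beside 2.57% of all genes. In the fit with surrogate variables 7 of the 8 values were positive, with a median of 0.34, and Ntng1 was at -0.010 ± 0.14. After ELS, Tnnt1 was 0.94 ± 0.42 higher in Fkbp5Nex mice in this fit (edgeR adjusted p = 0.770), although its raw median was higher in Fkbp5lox/lox mice, at 4.56 against 3.84 CPM. The fitted value was 0.35 without mouse 8 and 0.62 without Fkbp5Nex ELS mouse 66.

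The surrogate variables changed the fitted values of these genes. They took 57.5% (Ntng1) to 79.7% (Rgs16) of the genes' within-group variance, against a median of 56.8% over all tested genes. By that share the 8 genes ranked from place 2472 (Rgs16) to place 7961 (Ntng1) of 16209, so many other genes lost more. Group labels accounted for 2.97% to 24% of the variance of a surrogate variable. In the fit with the groups alone, ELS in Fkbp5lox/lox mice gave 8 of 8 positive values with a median of 0.93, beside 0.00057 over all genes. Of the 8 genes 6 were higher at an unadjusted p under 0.05, beside 1.74% of all genes, and none at the FDR, with an edgeR adjusted p of 0.999 for each. The 6 were Tnnt1 (1.82 ± 0.75), Prkcd (1.57 ± 0.57), Rgs16 (1.41 ± 0.45), Synpo2 (0.997 ± 0.31), Lef1 (0.85 ± 0.23) and Amotl1 (0.58 ± 0.23). Rora had 0.46 ± 0.26 and Ntng1 0.28 ± 0.17. Without mice 8 and 78, which was tried after the data were seen, 1 of 8 genes remained at that level, Lef1, beside 1.61% of all genes. Amotl1 was at 0.38 without mouse 8 alone.

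For the difference of ELS effects the fit with groups alone gave a median of 0.83, with 3 genes higher at an unadjusted p under 0.05, beside 1.39% of all genes. They were Rgs16 (1.54 ± 0.63), Synpo2 (0.94 ± 0.43) and Lef1 (0.72 ± 0.32), with an edgeR adjusted p of 0.99997 for each. The count depended on single mice. It was 0 without mouse 8 or Fkbp5Nex control mouse 54 and without both mice 8 and 78, 5 without Fkbp5lox/lox ELS mouse 68 and 6 without Fkbp5Nex ELS mouse 66. It was 1 when any of mice 28, 30, 78, 42, 10, 38 and 60 was left out. Over all genes the share at that level was 1.02% to 1.94% with a mouse left out. For genotype after ELS, all 8 values were negative in the fit with groups alone (median -0.42), while 6 of 8 were positive with the surrogate variables, so the sign of this comparison turned with the fit.

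**Figure D2:**
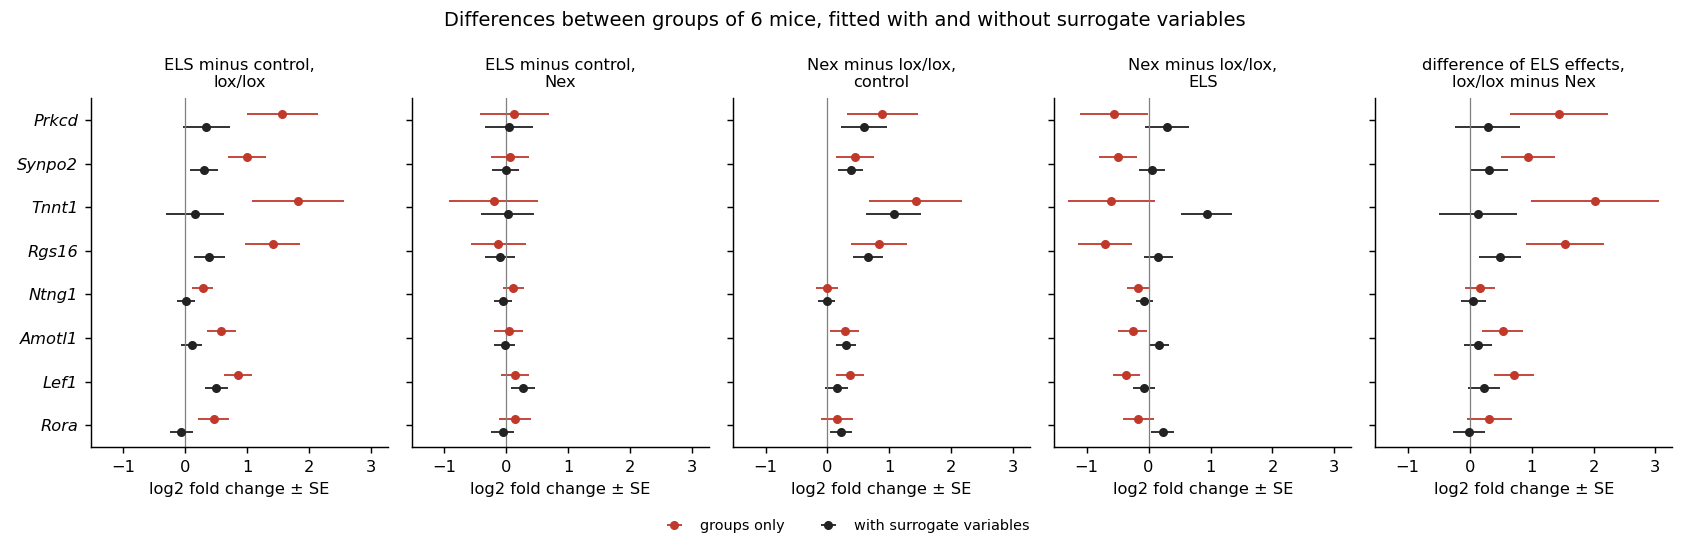
Log2 fold change with its standard error for the 8 genes in the 5 comparisons, with surrogate variables (black) and with groups alone (red). ELS in Fkbp5lox/lox mice gave a median of 0.93 with groups alone and 0.23 with surrogate variables, and values for genotype after ELS changed sign for 6 genes.

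Across mice of one group the genes moved together. For each pair of genes, log2 CPM was taken as the deviation from the group mean and correlated over the 24 mice, with a permutation test within groups and Benjamini-Hochberg adjustment over the 28 pairs. The median Pearson r was 0.77, and 21 pairs were over 0.5. All 21 pairs without Ntng1 passed an adjusted p of 0.05, from r = 0.57 for Lef1 and Rora (permutation adjusted p = 0.0103) to r = 0.96 for Prkcd and Tnnt1. For the latter the Spearman rho was 0.94, both permutation p-values were 1e-05, the smallest that 100000 permutations can give, and r was 0.94 without mice 8 and 78, the 2 mice farthest from the median. Tnnt1 and Rgs16 had r = 0.95 (rho 0.90) and Prkcd and Synpo2 r = 0.93 (rho 0.89), each with a permutation p of 1e-05. The 8 genes were chosen with earlier results of these data known, so these p-values are not independent evidence that the genes move together.

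Ntng1 stood apart in these values. Its 7 pairs had r from 0.25 with Lef1 to 0.42 with Amotl1, and none passed (permutation adjusted p from 0.0909 to 0.253). With the surrogate variables regressed out, the 7 pairs had r from 0.34 with Lef1 to 0.85 with Amotl1, so the gap depended on the processing. Without mice 8, 78 and 66, left out together after the data were seen, the 7 values for Ntng1 were all negative, from -0.27 to -0.073. The median over the 28 pairs was then 0.59, with Prkcd and Tnnt1 at 0.94, Tnnt1 and Rgs16 at 0.90, Amotl1 and Lef1 at 0.36, and Lef1 and Rora at 0.27. The tight group of Prkcd, Tnnt1, Rgs16 and Synpo2 thus did not rest on the 3 high mice alone. The pairs of Ntng1, the looser pairs of Lef1 and some pairs of Amotl1 leaned on high mice. With mice 8 and 78 left out and mouse 66 kept, Amotl1 fell from r = 0.77 to 0.61 with Tnnt1. It fell from 0.78 to 0.61 with Rgs16, but with Synpo2 and Rora it stayed at 0.85 and 0.86.

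**Figure D3:**
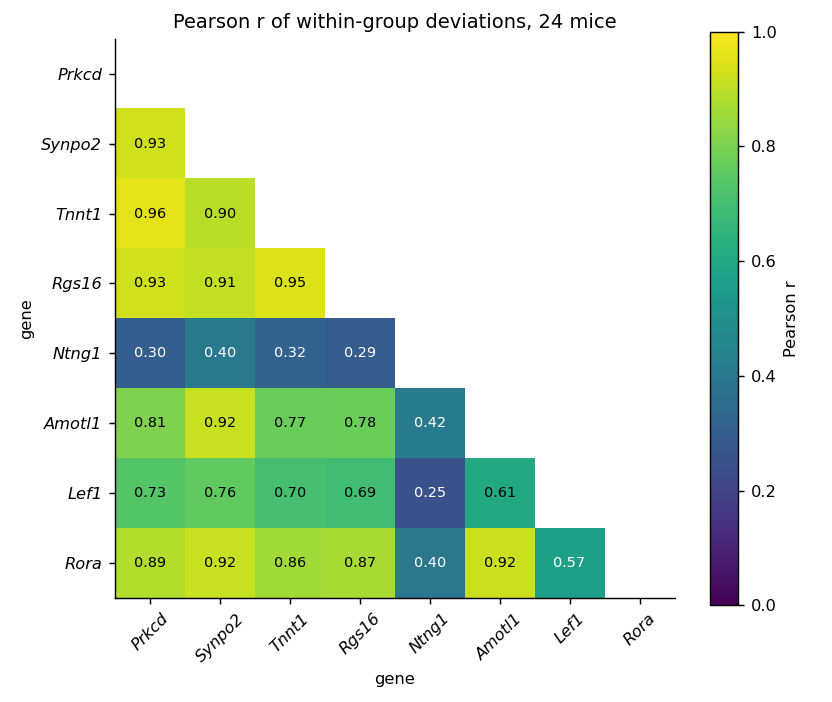
Pearson r of within-group deviations of log2 CPM over 24 mice for the 28 pairs of genes, in the order of the axes, with colour from 0 to 1. The Ntng1 pairs, at 0.25 to 0.42, lie below all others, and Prkcd with Tnnt1 is the highest at 0.96.

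Each gene was then set against the mean of the other 7 (as z-scores of the same deviations), and all 16202 candidates, the gene itself and every tested gene outside the 8, were ranked by r. Synpo2 (r = 0.97), Prkcd (0.93), Tnnt1 (0.92) and Rora (0.91) each ranked first, Rgs16 second (0.91), Amotl1 in place 9 (0.87), Lef1 in place 46 (0.70) and Ntng1 in place 1118 (0.37). These are descriptions over 24 mice that share a library each, with no test. The choice of the 8 genes with earlier results of these data known bears on these ranks too.

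Against the mean of all 8, the genes outside the set with the most similar pattern over the 24 mice were Plekhg1 (r = 0.91), Vipr2 (0.90), Pdp1 (0.90), Grid2ip (0.89), Rab37 (0.88), Plcb4 (0.88), Ccdc136 (0.88), Nexn (0.88), Zic1 (0.87) and Slitrk6 (0.87). Of these 10, 4 (Plekhg1, Rab37, Plcb4 and Zic1) are hub genes of the study, and a further hub gene, Tcf7l2, was in place 14 with 0.86. Zic4, which the study also calls a hub gene, had 0.65. The study chose the hub genes on these same samples. Of all 16201 genes outside the set 25 were over 0.8 and 1.68% over 0.5, with a median of 0.0018. The most opposed were Ccdc148 (-0.74), Gm6569 (-0.74) and Nucb2 (-0.74).

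Of a further list of 12 thalamic genes, 10 passed the filter, with a median r of 0.69 with the mean of the 8 genes. The study had picked out 3 of them, Slc17a6, Foxp2 and Zic4, on these same samples, so their r is not independent evidence. Slc17a6, the vesicular glutamate transporter of relay neurons, had 0.84 and ranged from 1.84 to 46.5 CPM over mice. Ramp3, a receptor-modifying protein, had 0.86. Calb2 (calretinin) had -0.083 and Cacna1g, a T-type calcium channel, -0.32, so 2 of the 10 did not follow. Of the 2 that failed the filter Gbx2, a homeobox factor of the developing thalamus, was at 0 reads in 8 mice and Shox2 at 0 in 2. The summed level of the 12 was 363 to 412 CPM in Fkbp5lox/lox control mice, 412 to 630 CPM in Fkbp5lox/lox ELS mice, 341 to 480 CPM in Fkbp5Nex control mice and 381 to 507 CPM in Fkbp5Nex ELS mice, with mouse 8 the highest. Adarb1 (r = 0.70), at 153 to 315 CPM over mice, was the largest part of this sum. Cacna1g, at 41.0 to 132 CPM, and Calb2, at 15.3 to 129 CPM, entered it too. The sum is thus weighted to a few abundant genes. In the fit with surrogate variables, 0 of 10 passed the FDR for ELS in Fkbp5lox/lox mice, beside 0% of all genes. At an unadjusted p under 0.05 by edgeR 2 were higher, beside 2.74% of all genes. The median log2 fold change of the 10 was 0.10. With groups alone all 10 values were positive, with a median of 0.54, beside 8149 positive values among all 16209 tested genes. Of the 10, 3 were higher at an unadjusted p under 0.05 by edgeR, beside 1.74% of all genes.

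Markers of hippocampal fields and of other cells moved with the 8 genes to different degrees. All 5 markers of CA1 pyramidal cells ran opposite, with r from -0.59 to -0.44. The summed CA1 level was 232 to 799 CPM in Fkbp5lox/lox control mice, 84.5 to 558 CPM in Fkbp5lox/lox ELS mice, 148 to 517 CPM in Fkbp5Nex control mice and 357 to 501 CPM in Fkbp5Nex ELS mice. Mouse 8, with the highest level of 6 of the 8 thalamic genes, had the lowest CA1 sum, and it had the highest sum of the 6 dentate gyrus markers, 723 CPM. Mouse 66, in the top 4 for every thalamic gene, differed from it. It had the lowest dentate gyrus sum of the Fkbp5Nex ELS mice, 126 CPM. The lowest CA1 sum of that group, 357 CPM, was in mouse 38. All 5 oligodendrocyte markers ran with the 8 genes (r from 0.42 to 0.47), with sums of 1335 to 4937 CPM in Fkbp5lox/lox control mice, 1423 to 4262 CPM in Fkbp5lox/lox ELS mice, 1404 to 6137 CPM in Fkbp5Nex control mice and 1944 to 4195 CPM in Fkbp5Nex ELS mice. The part of tissue composition in the group differences was not tested.

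The other lists had medians nearer 0, although single genes lay as far out as the CA1 and oligodendrocyte markers, among them Tac2 of the habenula (-0.67), Gpr151 of the habenula (-0.47), Ly6c1 of endothelium (-0.45) and Cux2 of cortical layer 4 (0.44). The median r was 0.27 for CA2 and CA3, 0.18 for cortical layer 4, 0.14 for interneurons, 0.053 for the dentate gyrus, 0.047 for the choroid plexus, -0.15 for astrocytes, -0.18 for the habenula and -0.22 for endothelium. The habenula adjoins the thalamus, and its defining factor Pou4f1 was at 0 reads in 11 mice and at no more than 0.0988 CPM in any. The other 7 habenula markers had reads in every mouse, with Lrrc55 at up to 14.1 CPM, Tac2 at up to 5.404 CPM and Chrnb3 at up to 2.26 CPM. Summed over all 8 markers, the choroid plexus list varied from 19.6 to 4640 CPM. The 5 of them that passed the filter had r between -0.00052 and 0.14 and so varied apart from the thalamic genes.

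**Figure D4:**
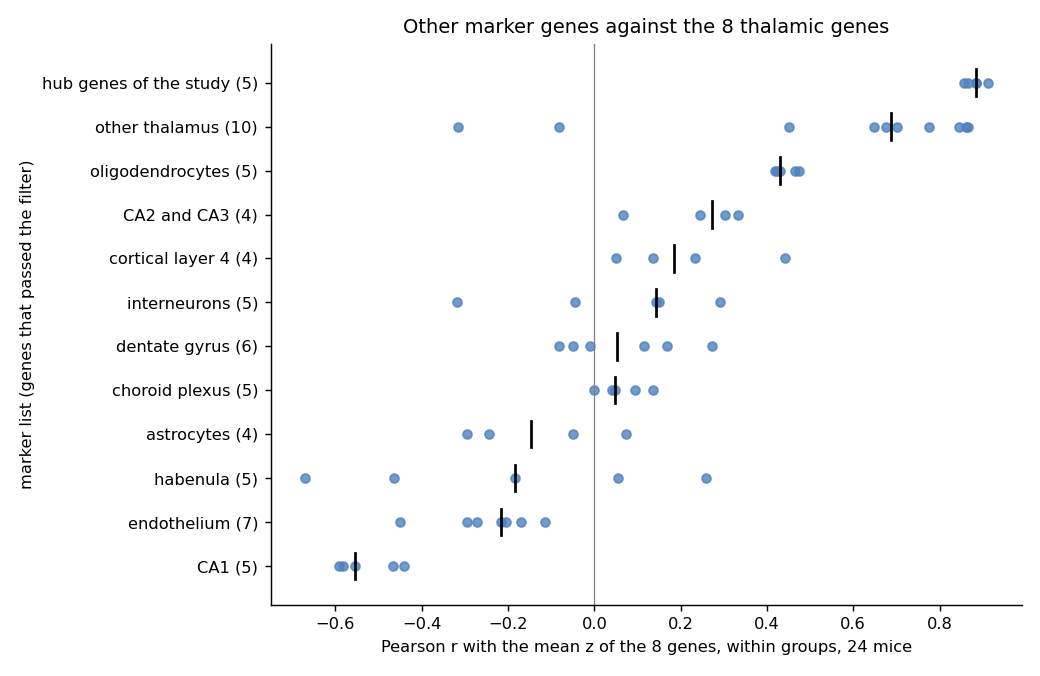
Pearson r over 24 mice between each marker gene and the mean of the 8 thalamic genes (z-scores within groups), with 1 point per gene, a bar at the list's median and the number of genes that passed the filter in brackets. The 5 hub genes and most other thalamic genes lie at the right, the 5 CA1 markers at the left.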

How the data were processed

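Counts per gene were produced by the authors and deposited as 1 table of raw read counts for 24 mice. Per the labels' processing notes, reads were aligned with HISAT2 2.0.5 and counted with featureCounts 1.5.0-p3. The genome build and strandedness are not given in the sources used here. Nothing in the labels gives a batch. Groups came from the labels.

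The 8 genes and the marker lists were chosen with earlier results of these data known. Genes were named as the 8 members, the hub genes, the 10 most and 3 least similar genes, and list genes on which a result turned. Genes whose counts reached 10 in all mice of some group were tested with edgeR 4.0.16 (quasi-likelihood, robust, TMM) on group means plus 5 surrogate variables (sva 3.50.0), with Benjamini-Hochberg adjustment over 16209 genes and an FDR of 0.02. A standard error is the absolute log2 fold change over the square root of F. The fit without surrogate variables, DESeq2 1.42.0, other filters and each mouse left out were alternatives. Correlations used log2 CPM with a prior count of 1, with 100000 two-sided permutations within groups. p-values measure the spread between mice of 6 per group, taken as independent. They do not measure the spread between litters, which no fit held.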

Additional observations from a re-analysis of the deposited data

Results flagged for a closer look

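In 32 sets of 6 mice, each of the 8 genes in each group, 2 mice stood apart from the others of their group, measured as the gap to the nearest mouse over the whole range of log2 CPM (Dixon's test at its critical value). Amotl1 in Fkbp5Nex ELS mouse 66 was at 52.8 CPM against 28.3 CPM in the next mouse, a ratio of 0.815 of the range. Ntng1 in Fkbp5lox/lox control mouse 44 was at 65.2 CPM against 40.8 CPM in the next mouse, a ratio of 0.699. Chance flags about 1 in 20 such sets. Mice 8 and 78 were not flagged in any gene, since they lay near each other and the rule measures the gap of a single mouse.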

How the results depend on the processing

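No paired analysis was possible because mouse numbers were unique to a mouse and no number was shared between groups. The study assigned each dam with its litter to ELS or control. No fit here held the litter, so mice were treated as independent. None of the 8 genes passed the FDR of 0.02 in the 5 comparisons under any alternative run, namely no surrogate variables, DESeq2's size factors, filterByExpr, no filter, the DESeq2 Wald test, an FDR of 0.05 and each mouse left out. Most fitted values were smaller than 2 SE, and the signs listed below turned, none of them with DESeq2's size factors or filterByExpr. The cause was not tested. Precision was limited by 6 mice per group, with 3 of the 24 mice (8, 78 and 66) in the top 4 for every gene. The median r over the 28 pairs was 0.74 to 0.83 with each mouse left out, 0.71 by Spearman, 0.76 with surrogate variables regressed out, 0.70 without mice 8 and 78 and 0.59 without mice 8, 78 and 66. The fold between the lowest and highest mouse moved by less than the within-group SD in every alternative run. With a mouse left out, it can change only where that mouse was the lowest or the highest. For Tnnt1 it was 18.1 without Fkbp5lox/lox ELS mouse 68 and 22.1 without mouse 8. Mice 8 and 78 were not left out together for this value.

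The following log2 fold changes had the opposite sign of the value with surrogate variables. With groups alone, for ELS in Fkbp5lox/lox mice Rora was at 0.46, for ELS in Fkbp5Nex mice Synpo2 was at 0.058, Tnnt1 at -0.21, Ntng1 at 0.11, Amotl1 at 0.041 and Rora at 0.14, for genotype after ELS Prkcd was at -0.56, Synpo2 at -0.49, Tnnt1 at -0.60, Rgs16 at -0.70, Amotl1 at -0.26 and Rora at -0.17, for the difference of ELS effects Rora was at 0.32. By DESeq2, for ELS in Fkbp5lox/lox mice Tnnt1 was at -0.047, for ELS in Fkbp5Nex mice Tnnt1 was at -0.11. With no filter on low counts, for ELS in Fkbp5lox/lox mice Ntng1 was at -0.0036, for ELS in Fkbp5Nex mice Synpo2 was at 0.0058 and Ntng1 at 0.0067, for genotype after ELS Synpo2 was at -0.0076, for the difference of ELS effects Tnnt1 was at -0.054 and Ntng1 at -0.010. Without mice 8 and 78, for ELS in Fkbp5lox/lox mice Tnnt1 was at -0.17 and Ntng1 at -0.015, for ELS in Fkbp5Nex mice Synpo2 was at 0.037 and Amotl1 at 0.020, for genotype under control rearing Lef1 was at -0.037, for the difference of ELS effects Tnnt1 was at -0.31. In the fit with surrogate variables, leaving out each mouse in turn gave log2 fold changes of -0.098 to 0.47 for Tnnt1, -0.067 to 0.10 for Ntng1 and -0.15 to 0.052 for Rora for ELS in Fkbp5lox/lox mice. The ranges were -0.22 to 0.21 for Prkcd, -0.17 to 0.11 for Synpo2, -0.31 to 0.26 for Tnnt1, -0.30 to 0.073 for Rgs16, -0.12 to 0.062 for Ntng1, -0.15 to 0.089 for Amotl1 and -0.19 to 0.073 for Rora for ELS in Fkbp5Nex mice. The ranges were -0.15 to 0.13 for Ntng1 and -0.11 to 0.38 for Lef1 for genotype under control rearing. The ranges were -0.17 to 0.52 for Prkcd, -0.22 to 0.18 for Synpo2, -0.16 to 0.34 for Rgs16, -0.18 to 0.00037 for Ntng1, -0.037 to 0.27 for Amotl1 and -0.32 to 0.013 for Lef1 for genotype after ELS. The ranges were -0.11 to 0.52 for Tnnt1, -0.085 to 0.16 for Ntng1, -0.013 to 0.32 for Amotl1 and -0.13 to 0.19 for Rora for the difference of ELS effects. Rgs16 and Ntng1 had r = -0.0042 without mice 8 and 78, the 2 mice farthest from the median, and the 7 pairs of Ntng1 had r of -0.18 (Prkcd), -0.13 (Synpo2), -0.12 (Tnnt1), -0.19 (Rgs16), -0.27 (Amotl1), -0.073 (Lef1) and -0.20 (Rora) without mice 8, 78 and 66. Genes past the FDR over the whole table numbered 6 for genotype under control rearing with surrogate variables, 2 with groups alone, 53 by DESeq2, 11 at an FDR of 0.05, 2 without mice 8 and 78, and 1 to 16 with a mouse left out (1 without mouse 12, 3 without mouse 52 and 16 without mouse 54, all Fkbp5Nex control mice). For genotype after ELS they numbered 2, and 4 by DESeq2. They were 0 for ELS in Fkbp5lox/lox mice and 1 by DESeq2, and 0 for ELS in Fkbp5Nex mice and 1 with no filter. With groups alone and a mouse left out, 0 to 2 of the 8 genes were higher in Fkbp5Nex than in Fkbp5lox/lox control mice at an unadjusted p under 0.05 by edgeR (0 with all mice, 2 without mouse 12 or 64, 1 without mouse 34, 50 or 32, and 2 without mice 8 and 78). Of all genes the share was 2.57% with all mice, 3.78% without mouse 12, 2.52% without mouse 64, 1.71% to 3.78% with any mouse left out and 2.42% without mice 8 and 78. The same count for the difference of ELS effects was 3 with all mice (1.39% of all genes). It was 0 to 6 with a mouse left out (1.02% to 1.94% of all genes) and 0 without mice 8 and 78 (1.27%). For ELS in Fkbp5lox/lox mice the count was 6 with all mice (1.74% of all genes) and 1 without mice 8 and 78 (1.61%).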
